A study of Homo sapiens with 8 samples.

Results

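The genes described here are 10 human genes that make and use microRNAs (miRNAs): DROSHA, DGCR8, DICER1, AGO1, AGO2, AGO3, AGO4, TNRC6A, TNRC6B and TNRC6C. They were chosen by gene symbol, with earlier results of these data known, and are 10 of the 43317 genes named on the array. Of their 13 probes, 7 genes had 1 probe and 3 genes (AGO1, AGO3 and TNRC6C) had 2. RNA was measured on 8 two-colour Agilent arrays, each of which carried mock RNA in Cy3 and RNA from treated cells of the same line in Cy5. On 2 arrays PC3, a prostate cancer line, was treated with bisamide, a small-molecule inhibitor of the protein pirin, for 24 h or 48 h. On the other 6 arrays cells had received a miRNA strand. PC3 was given miR-125b-1-3p, and C4-2, a prostate line derived from LNCaP cells, was given miR-199-3p. T24, from a bladder cancer, received miR-140-5p on 1 array and miR-140-3p on another, and 786-O, from a renal cancer, received miR-532-5p or miR-532-3p. The labels describe every mock as not transfected, give no time for the miRNA arrays and no dose for any array, and place bisamide, which is no nucleic acid, in the transfection field. Each treatment had 1 array, so the value of a gene on 1 array has no replicate and no test.

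A primary miRNA transcript is cut in the nucleus by DROSHA, an RNase III enzyme, with its RNA-binding partner DGCR8, and the hairpin is then cut in the cytoplasm by DICER1. One strand of the duplex is held by an Argonaute protein (AGO1 to AGO4), of which AGO2 is known for its slicing activity. Argonaute binds a TNRC6 (GW182) protein, which recruits the enzymes that shorten the poly(A) tail and remove the cap of the target transcript. A transfected mature strand bypasses DROSHA and DICER1 and enters at the Argonaute step. The comparison of miRNA with bisamide arrays therefore asks whether transcripts of the machinery itself stood apart where a small RNA had been delivered.

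The mature strands named in the labels are shown here, and their loading onto Argonaute proteins was not measured. They are printed 5′ to 3′ from RefSeq (GRCh38.p14), with the seed, bases 2 to 8, in capitals. The 6 strands carried 6 different seeds. The sequence of miR-199-3p is shared by miR-199a-3p and miR-199b-3p, which come from 3 loci.
miR-199-3p: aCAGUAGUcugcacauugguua
miR-125b-1-3p: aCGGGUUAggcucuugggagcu
miR-532-5p: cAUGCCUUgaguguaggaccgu
miR-532-3p: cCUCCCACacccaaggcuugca
miR-140-5p: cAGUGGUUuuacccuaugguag
miR-140-3p: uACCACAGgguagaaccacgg

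Each value below is the log2 of treated over mock signal after background correction and intensity-dependent (loess) normalization of each array, unless another scale is named. All 8 arrays lay on 1 slide, and no array had its dyes swapped, so a ratio of the same sign on every array cannot be told apart from an effect of the dyes. Between 15442 and 19243 genes of an array were well above background in both channels, and no spot of the 10 genes was saturated. Over 300 probes printed in 10 spots each, the SD between spots had a median of 0.039 to 0.053 per array, which covers the error within an array alone. The mock channels were set against markers of the labelled lines. KLK3, the prostate-specific antigen gene, had a raw Cy3 signal of 13590 in C4-2 and was not well above background in the other lines. CDH6, a renal cadherin, was well above background in 786-O alone, whereas the renal factors PAX8 and PAX2 were brighter in T24 (390 to 423 and 551 to 619) than in 786-O (235 to 239 and 112 to 124).

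None of the 10 genes reached a log2 ratio of 1.5 in either direction, and the largest was 0.88 (DICER1 with miR-532-3p). At a size of 0.5, a count with no test, 0 of 10 genes lay past the threshold on each of the bisamide arrays and on the miR-199-3p array. The background was 1.46% of all genes measured at 24 h and 1.81% at 48 h of bisamide, and 4.51% with miR-199-3p. For miR-125b-1-3p 2 genes passed (background 2.65%). In 786-O 3 genes passed for miR-532-5p (7.28%) and 2 for miR-532-3p (5.55%). In T24 2 genes passed for each strand (4.63% for miR-140-5p and 2.09% for miR-140-3p). The genes that passed were DICER1 on 4 arrays, TNRC6A, TNRC6C and DROSHA on 2 each, and AGO2 on 1. The median of the 10 genes was 0.04 and 0.05 on the bisamide arrays and between 0.19 and 0.24 on the 6 miRNA arrays, where the median of all measured genes was 0.02 or less on each array. Median centring in place of loess left the median of all measured genes between −0.03 and 0.45 on an array, so the gene values under that scaling are read against it. The medians of the 10 genes, as they stand, were then 0.58 and 0.60 on the bisamide arrays and 0.12 (miR-532-5p) to 0.78 on the miRNA arrays. On that scale the classes overlapped, and whether these medians overlap relative to the median of all genes was not tested.

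**Figure D1:**
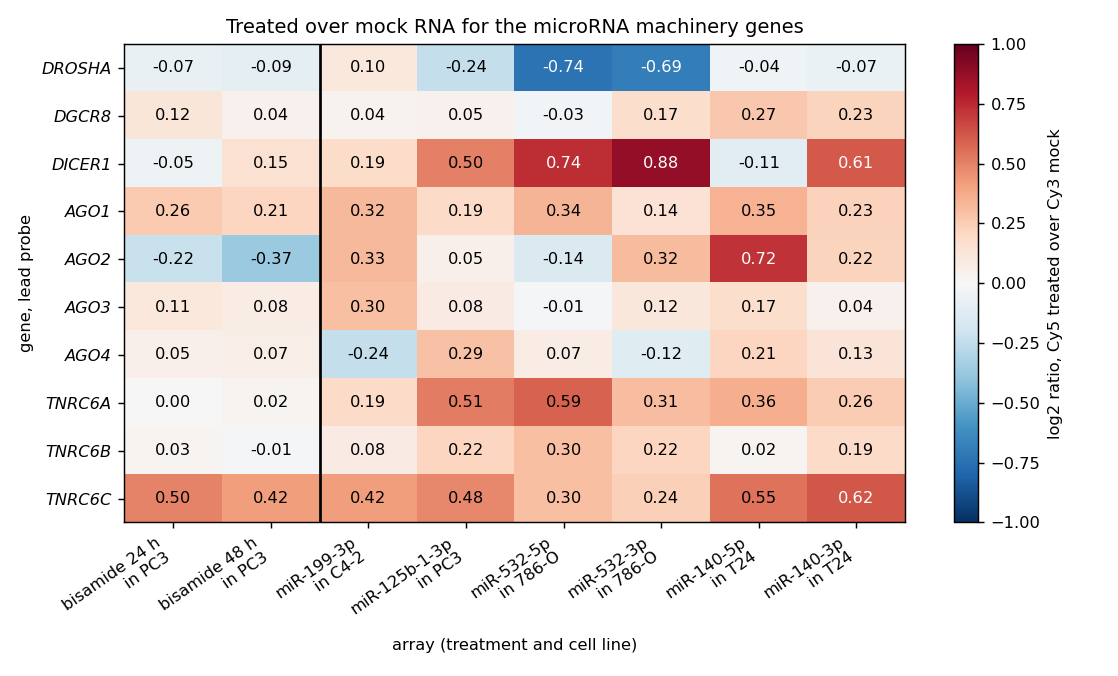
Log2 ratio of treated (Cy5) over mock (Cy3) RNA for the 10 genes (rows) on the 8 arrays (columns), with the 2 bisamide arrays left of the black line; red is higher and blue lower in treated cells, and each cell prints its value. DICER1 was highest (0.88) with miR-532-3p, DROSHA lowest (−0.74) with miR-532-5p, and AGO2 ran from −0.37 with bisamide for 48 h to 0.72 with miR-140-5p.

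DROSHA, the nuclear RNase III, was lowest on the arrays of 786-O (probe on chromosome 5, 31401473 to 31401532, GRCh37). Its ratio was −0.07 with bisamide for 24 h, −0.09 for 48 h, and −0.24 for miR-125b-1-3p in PC3. It was 0.10 for miR-199-3p in C4-2. In T24 it was −0.04 for miR-140-5p and −0.07 for miR-140-3p, and in 786-O −0.74 for miR-532-5p and −0.69 for miR-532-3p. Both 786-O arrays lay below the other 6 arrays, with treated signal at 0.601 and 0.620 of mock on the linear scale. In RNA of a whole culture, fewer cells with the transcript and less of it per cell cannot be told apart. Under all 7 ways of making the ratio DROSHA stayed below the median of all genes on both 786-O arrays, from −0.84 to −0.74 with miR-532-5p and from −0.74 to −0.22 with miR-532-3p. The scanner ratio and the series table, which hold the same values, are counted separately among the 7 here and below. On the 3 PC3 and 2 T24 arrays, by contrast, median centring moved DROSHA above that median. DGCR8, its double-stranded RNA-binding partner (chromosome 22, 20098916 to 20098975), lay between −0.03 with miR-532-5p and 0.27 with miR-140-5p, with 0.17 in the other 786-O array and 0.23 in the other T24 array. As large a range over the 8 arrays as that of DROSHA (0.84) was found in 12.9% of 12582 genes measured on all arrays, and as large a range as that of DGCR8 (0.29) in 77.3%.

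DICER1, the cytoplasmic RNase III that releases the mature duplex, was higher than mock on 4 of the miRNA arrays by 0.5 or more (chromosome 14, 95552615 to 95552674). Its ratio was −0.05 with bisamide for 24 h, 0.15 for 48 h, and 0.50 for miR-125b-1-3p in PC3. It was 0.19 for miR-199-3p in C4-2. In T24 it was −0.11 for miR-140-5p and 0.61 for miR-140-3p, and in 786-O 0.74 for miR-532-5p and 0.88 for miR-532-3p. The miR-140-5p array lay below both bisamide arrays and the others above them, so the classes overlapped. In T24 the strands of the miR-140 duplex differed by 0.73 for DICER1, a gap reached by 2.15% of 16992 genes. The raw Cy3 mock signals of these arrays were 153 and 153, and the raw Cy5 signals of treated cells were 205 for the 5p and 404 for the 3p strand. In 786-O the strands of the miR-532 duplex differed by 0.14 for DICER1, which 51.3% of 14847 genes reached, so DICER1 was high with either strand. These values had 1 spot on each array and no replicate, and DICER1 remained above the median of all genes on the 4 high arrays under all 7 ways of making the ratio.

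Among the Argonaute genes AGO2, the slicer, was printed in 10 spots (chromosome 8, 141541947 to 141542006), of which 7 to 9 were used on each array. Its ratio was −0.22 ± 0.06 (SD over spots) with bisamide for 24 h, −0.37 ± 0.03 for 48 h, and 0.05 ± 0.03 for miR-125b-1-3p in PC3. It was 0.33 ± 0.04 for miR-199-3p in C4-2. In T24 it was 0.72 ± 0.04 for miR-140-5p and 0.22 ± 0.05 for miR-140-3p, and in 786-O −0.14 ± 0.06 for miR-532-5p and 0.32 ± 0.05 for miR-532-3p. Both bisamide arrays were therefore below all 6 miRNA arrays, though not under median centring, and among the latter miR-532-5p alone was below 0. The range of 1.09 was the largest of the 10 genes, and 5.53% of all genes had as large a one. Within a line the strands differed, by 0.46 in 786-O (10.9% of genes differed as much) and by 0.50 in T24 (6%), with the 3p strand higher in 786-O and the 5p strand higher in T24. Both gaps exceeded the SD between spots, which carries no error of culture or labelling. AGO2 lay above the median of all genes with miR-140-5p under all 7 ways of making the ratio, from 0.72 to 1.27. It lay below that median with bisamide in each case except 1, since under median centring the 24 h array gave 0.54 against a median of 0.45.

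AGO1, AGO3 and AGO4 lie in 1 cluster on chromosome 1 and had smaller ranges. AGO1 (36389840 to 36389899) was above 0 on all 8 arrays, from 0.14 with miR-532-3p to 0.35 with miR-140-5p, with 0.26 and 0.21 on the bisamide arrays. Its dimmer probe (36386500 to 36386559), well above background in both channels of 7 arrays, gave −0.16 to 0.26 and was below 0 on 4 of the 8, so the probes of AGO1 disagreed on the sign. AGO3 (36521552 to 36521611) lay between −0.0079 with miR-532-5p and 0.30 with miR-199-3p, and its other probe (36439052 to 36439111) gave −0.17 to 0.18. On the miR-199-3p array the AGO3 probes stood at 0.30 and −0.07. AGO4 (36320420 to 36320479), a dim probe with raw Cy3 signals of 32.0 to 67.6, was lowest with miR-199-3p at −0.24 and highest with miR-125b-1-3p at 0.29. None of these 3 genes passed 0.5 on any array in these values. AGO4 with miR-532-3p, at −0.12 here, stood at −0.53 with plain background subtraction, −0.52 with a normexp offset of 0 and −0.72 in the scanner's own ratio, which also gave −0.54 with miR-199-3p, so its lowest array and whether it passed 0.5 depended on the processing.

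The TNRC6 genes, which encode the scaffolds that link Argonaute to deadenylation, are given in turn. TNRC6A (chromosome 16, 24835610 to 24835669) had ratios of −0.0017 and 0.02 with bisamide for 24 h and 48 h. On the miRNA arrays it had 0.51 for miR-125b-1-3p, 0.19 for miR-199-3p, 0.36 for miR-140-5p, 0.26 for miR-140-3p, 0.59 for miR-532-5p and 0.31 for miR-532-3p. All miRNA arrays were higher than both bisamide arrays, though under median centring only relative to the median of all genes of each array. TNRC6A lay above the median of all genes on each of the 6 under all 7 ways of making the ratio. Inside PC3 miR-125b-1-3p exceeded the bisamide arrays by 0.51 and 0.49, gaps reached by 4% and 5.12% of genes.

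TNRC6C (chromosome 17, 76101674 to 76101733) was above 0 on every array, by 0.498 and 0.42 with bisamide and by 0.24 with miR-532-3p to 0.62 with miR-140-3p on the miRNA arrays. Its other probe (76104813 to 76104872) was not well above background in both channels of any array. TNRC6C and AGO1 were the 2 genes above 0 on all 8 arrays, against 7.57% of all genes, and 0 of the 10 were below 0 throughout, against 3.29%. Since Cy5 was the treated channel on each array, these shared signs cannot be told apart from a dye effect of the probe.

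TNRC6B (chromosome 22, 40719222 to 40719281) had ratios of 0.03 and −0.0091 with bisamide for 24 h and 48 h. On the miRNA arrays it had 0.22 for miR-125b-1-3p, 0.08 for miR-199-3p, 0.02 for miR-140-5p, 0.19 for miR-140-3p, 0.30 for miR-532-5p and 0.22 for miR-532-3p. Of the 6 miRNA arrays 5 lay above both bisamide arrays, and miR-140-5p at 0.024 lay just below the 24 h array at 0.029. With plain background subtraction, no background correction, a normexp offset of 0 or the scanner ratio, all 6 lay above both. Under median centring the classes overlapped, and the share of all genes so separated was not counted under these alternatives. The class means were 0.17 and 0.01. Their difference was 0.16 with a 95% interval of −0.06 to 0.38 and a limma adjusted p of 0.831.

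The miRNA arrays were then compared with the bisamide arrays in 1 limma fit over all 58201 probes. Class was partly bound to cell line, since both bisamide arrays and only 1 miRNA array were of PC3, and delivery by transfection was bound to class. The effects of transfection, of the strands and, outside PC3, of line cannot be told apart. The arrays of a class are different treatments, so the p-values measure the spread between treatments. None of the 13 probes passed an adjusted p of 0.05 in limma, against 84 probes called (0.144%), 9 higher and 75 lower on miRNA arrays. At an unadjusted p under 0.05, which 6.84% of all probes reached, the lead probes of AGO2 and TNRC6A passed.

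AGO2 averaged 0.25 ± 0.29 (SD, n = 6) on miRNA arrays and −0.30 on the 2 bisamide arrays. The difference was 0.55, with an SE of 0.20, a 95% interval of 0.12 to 0.97 and a limma adjusted p of 0.579. TNRC6A averaged 0.37 ± 0.15 (SD, n = 6) and 0.01, a difference of 0.36 with an SE of 0.12, an interval of 0.10 to 0.62 and a limma adjusted p of 0.533. For both genes the ratios of the 2 classes did not overlap, except under median centring. That scaling gave AGO2 0.54 and 0.39 with bisamide but −0.25 for miR-532-5p, and TNRC6A 0.52 and 0.54 with bisamide but 0.49 for miR-532-5p and 0.51 for miR-199-3p. Read against the median of all genes of each array, TNRC6A stayed apart under it, with miRNA arrays at 0.21 or more and bisamide arrays at 0.10 or less. AGO2 still overlapped, with a lowest miRNA array of −0.22 and a highest bisamide array of 0.09. In the loess values such a separation with all miRNA arrays higher was found in 5.52% of the 12582 genes measured throughout, and with all lower in 7.51%. The exact two-sided permutation test over the 28 ways of naming 2 of 8 arrays gave p = 0.0714 for each, the smallest p this design allows, so it could not pass 0.05.

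With cell line as a term, which leaves the 3 PC3 arrays to set the difference, AGO2 differed by 0.35 (limma adjusted p = 0.853) and TNRC6A by 0.50 (limma adjusted p = 0.392). The DICER1 difference was 0.42 with an interval of −0.02 to 0.86 and a limma adjusted p of 0.752, and its classes overlapped. For DROSHA the difference was −0.20 with an interval of −0.68 to 0.29. The remaining 6 genes differed by −0.03 to 0.16, and their intervals included 0. Over the 10 genes the median difference was 0.03, against −0.0085 over all genes measured on each array.

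**Figure D2:**
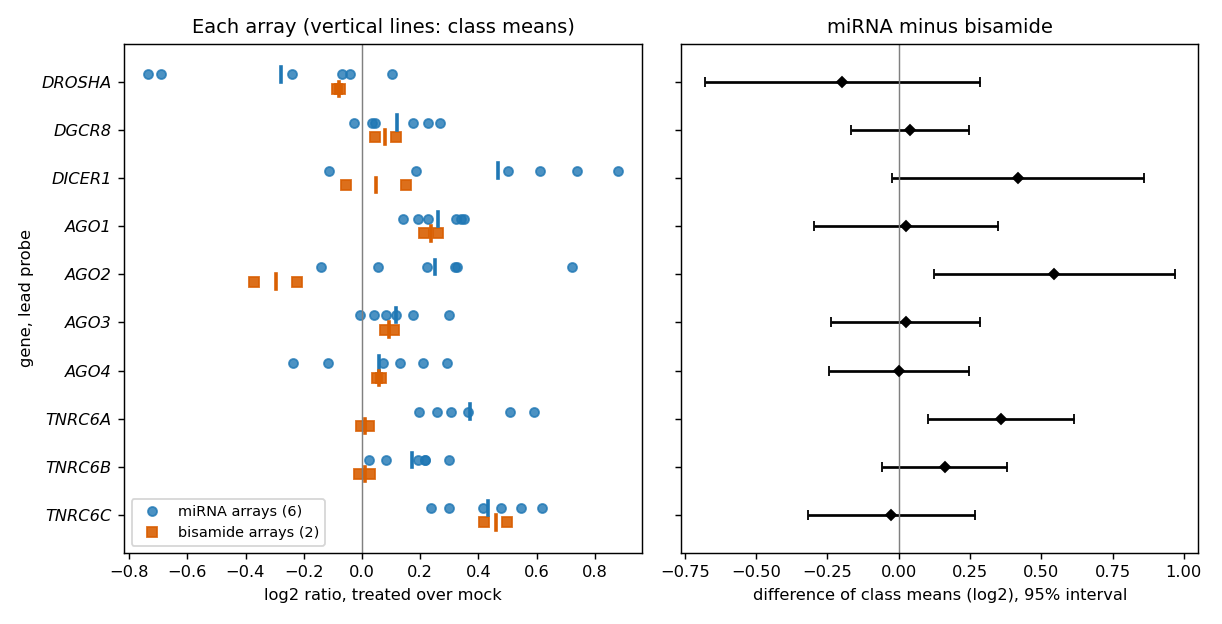
Left, log2 ratio of treated over mock RNA of each gene on the 6 miRNA arrays (blue circles) and the 2 bisamide arrays (orange squares), with class means as vertical lines; right, the difference of class means with its 95% interval from limma. The intervals of AGO2 (0.12 to 0.97) and TNRC6A (0.10 to 0.62) lie above 0, and none of the 10 genes passed after adjustment over all probes.

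The other genes of the pathway were read from a list of 84, all of them on the array and 74 well above background in both channels of all 8 arrays. In the class comparison 0 of 84 passed after adjustment, where 0.144% of all probes did. At an unadjusted p under 0.05, reached by 6.84% of all probes, 0 were higher and 2 lower, and the median difference was −0.03. By group, the median difference was −0.0082 for 16 genes of processing and export, −0.0038 for 18 partners of DICER1 and of Argonaute loading, −0.0053 for 19 deadenylation genes and −0.01 for 11 decapping and decay genes. It was −0.14 for 6 genes of translational repression, −0.09 for 10 of tailing and turnover and 0.02 for 4 PIWI genes, none of which was measured on all arrays. The 2 genes that passed unadjusted are named after their values were seen. AJUBA, a LIM-domain protein, had ratios of 0.51 and 0.62 with bisamide and −0.57 to 0.21 with miRNAs, a difference of −0.72 with a limma adjusted p of 0.176. ZNF598, a ubiquitin ligase of stalled ribosomes, had 0.21 and 0.04 with bisamide and −0.85 to −0.17 with miRNAs, a difference of −0.57 with a limma adjusted p of 0.518.

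On single arrays, the listed genes with the lowest and the highest ratio were named on each. With bisamide for 24 h these were HSPA8, a constitutive chaperone, at −0.47 and AJUBA at 0.51, and for 48 h SRSF3, a splicing factor, at −0.48 and AJUBA at 0.62. The miR-199-3p array held the lowest value of the list, −1.06 for CNOT7, a catalytic deadenylase subunit of the CCR4-NOT complex, beside 0.61 for PABPC4, a poly(A)-binding protein. Of the measured listed genes 10.8% lay past 0.5 on it, with 1 higher and 7 lower, against 4.51% of all genes. On the other 7 arrays the listed genes past 0.5 made up 1.28% to 5.19%. With miR-125b-1-3p PTGES3, an HSP90 cochaperone, was lowest at −0.86 and DCP2, the decapping enzyme, highest at 0.997.

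In 786-O HSPA8 was lowest with miR-532-5p at −0.73 and BTG1, a CCR4-NOT cofactor, highest at 0.74, while with miR-532-3p RAN, the GTPase of nuclear transport, was lowest at −0.69 and DCP2 highest at 0.78. In T24 PABPC1, a poly(A)-binding protein, was lowest with miR-140-5p at −0.59 and DCP2 highest at 0.43. With miR-140-3p PARN, a deadenylase, was lowest at −0.62 and BTG2, a relative of BTG1, highest at 0.41. DCP2 was thus the highest gene of the list on 3 miRNA arrays, yet it stood at −0.79 with miR-199-3p, and its class difference of 0.56 had an interval of −0.11 to 1.24.

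**Figure D3:**
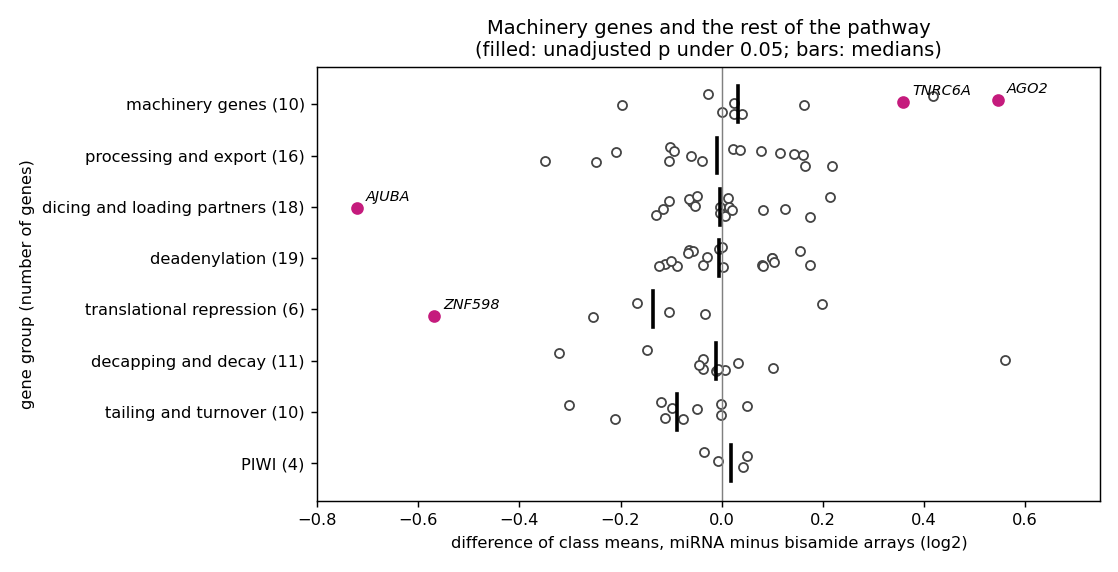
Difference of class means (miRNA minus bisamide arrays, log2) for the 10 machinery genes and the 84 other pathway genes by group; each point is the lead probe of a gene, filled where the unadjusted limma p was under 0.05, and bars are group medians. AGO2 and TNRC6A lie on the higher side, AJUBA and ZNF598 on the lower side, and the medians of all groups lie between −0.14 and 0.03.

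The resting level of each gene was read from the Cy3 mock channel in PC3 (3 arrays), C4-2 (1 array), 786-O (2 arrays) and T24 (2 arrays). The labels do not say whether mocks of 1 line were separate cultures, so these p-values may measure technical spread. All 10 lead probes differed between lines by limma's F test at an adjusted p under 0.05, but so did 45% of all probes and 89.7% of those above background in Cy3 on all arrays, so a call here does not set the genes apart. Levels are compared between lines for 1 probe at a time and not between genes.

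AGO2 had the widest gap. Its raw Cy3 mock signal was 1097, 1126 and 1166 in PC3, 167 in C4-2, 123 and 129 in 786-O and 202 and 220 in T24. PC3 was above every other line on each array. After normalization the mean log2 level was 9.93 in PC3, 8.56 in C4-2, 8.19 in 786-O and 7.97 in T24, a 3.89-fold span (limma F test, adjusted p = 1.95e-08) that became 7.13-fold, with 786-O lowest, under median centring. PC3 exceeded C4-2 with an adjusted p of 2.14e-06 in limma, while 786-O and T24 were not separated (adjusted p = 0.121). PC3 is also the line of both bisamide arrays, where the AGO2 ratio was lowest, and the part of this high mock level in that ratio was not tested.

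DICER1, DROSHA and DGCR8 were each lowest in C4-2, under loess with Aquantile and under median centring alike. The log2 level of DICER1 was 7.58 in T24, 7.53 in 786-O and 7.45 in PC3, which were not separated from their neighbours (limma adjusted p of 0.804 and 0.594), and 6.76 in C4-2, below PC3 with an adjusted p of 0.000995. DROSHA stood at 10.79 in 786-O, 10.61 in T24 and 10.59 in PC3 (adjusted p of 0.363 and 0.921 between neighbours in limma) and at 9.49 in C4-2, which was 2.45-fold below 786-O, or 4.70-fold below PC3 under median centring. For DGCR8 the levels were 7.26 in 786-O, 6.97 in T24, 6.83 in PC3 and 6.35 in C4-2. Above C4-2 the order depended on the scaling, since median centring ranked PC3, T24 and then 786-O for DICER1, DROSHA and DGCR8 alike. The DICER1 span of 1.77-fold became 2.47-fold. Raw Cy3 signals of DICER1 were 72.1 to 72.5 in 786-O, 153 in T24 and 143 to 182 in PC3. Those of DGCR8 were 64.5 to 67.2 in 786-O and 87.7 to 92.5 in PC3. Neighbouring lines were not tested under median centring. The C4-2 levels rest on 1 array.

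Among the other Argonaute genes, AGO4 was highest in C4-2 at 7.22, on 1 array, and lay between 6.26 and 6.47 in the other lines. Its 1.95-fold span became 1.55-fold under median centring, with C4-2 still highest. The raw Cy3 signal of this dim probe was 67.6 in C4-2 and 51.1 to 65.7 in PC3. AGO3 was highest in T24 (8.14) and C4-2 (8.08), which were not separated, and lower in PC3 (7.74) and 786-O (7.71), a 1.34-fold span that became 2.2-fold, with C4-2 below PC3, under median centring. By its other probe AGO3 was highest in C4-2, above T24 with a limma adjusted p of 0.00236, and spanned 2.13-fold. AGO1 was highest in 786-O at 10.12 by its lead probe, 2.68-fold above PC3, but the span shrank to 1.29-fold under median centring and its dimmer probe put 786-O lowest. The raw Cy3 signals of the AGO1 lead probe, 470 and 555 in 786-O and 413 to 523 in PC3, overlapped. TNRC6A and TNRC6B spanned 1.22-fold and 1.29-fold, or 1.66-fold and 1.95-fold with another order of lines under median centring. TNRC6C was highest in C4-2 (8.48) and 786-O (8.36) and lowest in PC3 (7.66), but median centring put PC3 highest and 786-O lowest, so its order of lines depended on the scaling.

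**Figure D4:**
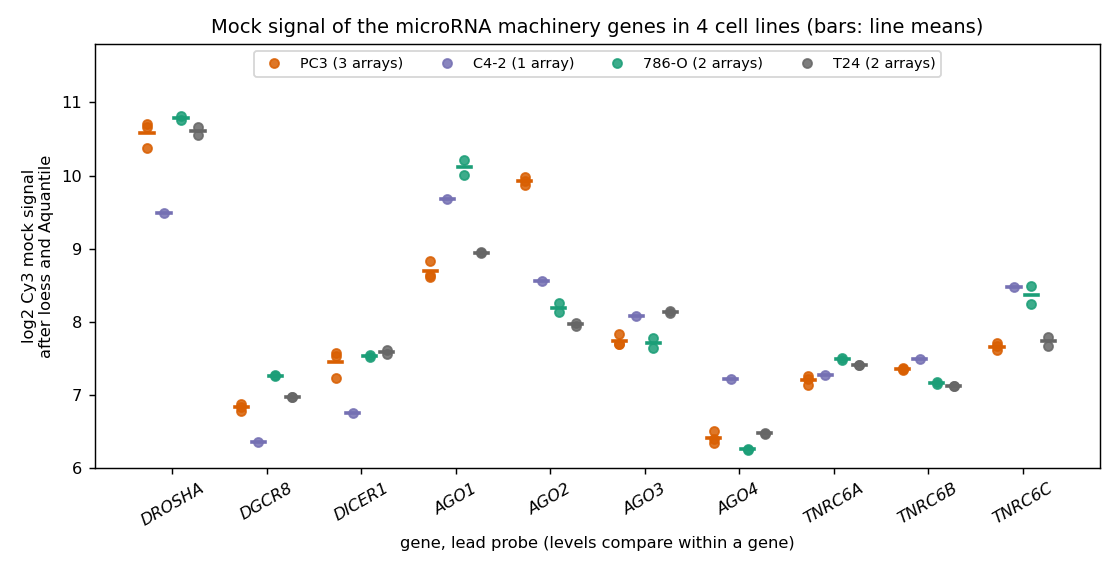
Log2 Cy3 signal of mock RNA after loess and Aquantile normalization for the lead probe of each gene in PC3, C4-2, 786-O and T24; each point is 1 array and bars are line means, to be compared within a gene only. AGO2 is highest in PC3 (9.93), and DROSHA, DGCR8 and DICER1 are lowest in C4-2 (9.49, 6.35 and 6.76).

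AGO2 had the largest range of the 10 genes, so the genes most like it were looked up among 10258 named genes measured on all 8 arrays. These were BLMH (bleomycin hydrolase) with a Pearson's r of 0.964, and PSMB3 (a proteasome subunit) and PRSS36 (a serine protease) with an r of 0.96 each. The correlations run over 8 arrays that share a slide and a dye orientation, the genes were picked as the highest of many, and the values are given as a description. The log2 ratio of BLMH was −0.34 and −0.33 on the bisamide arrays and 0.37 with miR-140-5p. For PSMB3 these values were −0.38, −0.40 and 0.04, and for PRSS36 they were 0.11, 0.08 and 0.50. A high r thus did not mean the same sign as AGO2, since PRSS36 was above 0 with bisamide.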

How the data were processed

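RNA of mock cells (Cy3) and treated cells (Cy5) was measured on 8 Agilent two-colour arrays, 1 per treatment, grouped by the treatment and cell line in the labels. Per the file headers, the authors read them with Agilent Feature Extraction 11.5.1.1, and the deposited files hold spot intensities on a linear scale with local background, not normalized, flags, and a log10 ratio of Cy5 over Cy3 that the scanner software had background-subtracted and dye-normalized. The deposited series table holds the same log10 ratio. The log2 ratios used here were computed from the deposited intensities. Coordinates are those of the files (GRCh37), and all 13 probes matched their symbol in RefSeq by accession. Whether a probe lies in an exon or UTR was not looked up.

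Intensities were corrected by normexp with an offset of 50 and normalized by loess within arrays in limma 3.58.1 (R 4.3.3). Control spots were left out, and 126 to 181 spots per array were flagged as outliers. The value of a probe was the mean of its other spots, or of all its spots where each was an outlier. Outlier spots stayed in the loess fit. The lead probe of a gene had the highest mean log2 intensity. The class fit set 6 miRNA arrays against 2 bisamide arrays over all 58201 probes with eBayes (trend) and Benjamini-Hochberg adjustment, and was tested on simulated data. Mock Cy3 levels, after Aquantile, were compared between the 4 lines by limma's F test. The array number limits the precision.

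The members and lists were chosen with earlier results of these data known. Named were all members, the lowest and highest listed pathway gene of each array, and the 3 genes most like the member of largest range. Listed genes past an adjusted p of 0.05 were to be named too, but none passed. AJUBA and ZNF598, with an unadjusted limma p under 0.05, were named after their values were seen. The pathway list was written from general knowledge. Alternatives changed the background correction, normalization, ratio source, probe choice, filter, size, variance model, line term and arrays used.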

Additional observations from a re-analysis of the deposited data

How the results depend on the processing

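No paired analysis was possible because each treatment had 1 array and the labels number no replicates, and cell line as a term is among the alternatives here. In the class comparison, 0 members passed under any alternative. The number of probes called, 84, became 23 with plain background subtraction, 54 with no background correction, 30 with a normexp offset of 0, 208 with median centring, 174 with the scanner ratio and 174 with the series table. It became 188 with cell line as a term, 34 with only probes well above background in both channels of all arrays and 47 with eBayes without trend. Leaving out 1 array gave 35 to 118 called probes, with 35 without bisamide 24 h, 50 without bisamide 48 h, 53 without miR-140-3p and 55 without miR-532-3p. Over 18 alternatives the difference ran from 0.20 to 0.62 for AGO2, 0.17 to 0.59 for TNRC6A, 0.17 to 0.73 for DICER1 and −0.48 to −0.11 for DROSHA, with limma adjusted p of 0.399 to 1 for AGO2 and 0.392 to 1 for TNRC6A. Of the 6 other members, whose differences were not called, AGO4 took the other sign in 11 of 18, TNRC6C in 8 and the remaining 4 in 1 to 3. The TNRC6B difference reached 0.36 in the scanner ratio. The scanner ratio and the series table gave the same values and are counted separately among the 18.

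For the number of members past 0.5, median centring gave 9 and 7 for bisamide at 24 h and 48 h, 6 for miR-199-3p, 8 for miR-125b-1-3p, 5 for miR-532-3p, 7 for miR-140-5p and 9 for miR-140-3p. Median centring also moved the median of all measured genes away from 0, as given above. The share of all genes past the size was not counted under the alternatives, so their counts do not set the members apart. Plain subtraction and an offset of 0 gave 1 for bisamide at 24 h and 4 for miR-532-3p, and no correction gave 1 for bisamide at 24 h. The scanner ratio and the series table gave 1 for bisamide at 24 h, 2 for miR-199-3p and 4 for miR-532-3p. Averaging all probes of a gene gave 1 for each miR-140 strand. Relative to the other arrays, each bisamide array had 1 and miR-125b-1-3p and miR-140-3p had 0. At a size of 1.0 each of the 5 arrays with counts above 0 had 0. Members above 0 on all arrays, 2, became 5 with median centring, 4 with the scanner ratio or series table and 0 relative to the other arrays, a value that construction fixes. The share of all genes above 0 throughout was counted for the main processing alone, so the 5 and the 4 have no background. The mock comparison called 26170 probes and 14672 when only probes well above background in Cy3 on all arrays were tested. It called 7 members when the mocks of 786-O and of T24 were averaged (20751 of all probes) and 9 under median centring (26643). Leaving out 1 mock of PC3, 786-O or T24 gave 9 or 10 members (23540 to 26678 of all probes). The C4-2 mock was not left out. Except where an alternative tested fewer probes or arrays, the cause was not tested. The dimmest lead probe, AGO4, had raw signals of 25.6 to 32.8 on the 786-O arrays, and its ratio with miR-532-3p ran from −0.72 to −0.07 over the 7 ways of making it.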
